A study of Mus musculus with 10 samples.

Results

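Cytoplasmic ribosomal protein genes encode the proteins that join ribosomal RNA to form the large and the small subunit of the cytoplasmic ribosome. The genes were taken by name: Rpl or Rps followed by a number and at most a short suffix, together with Rplp0, Rplp1, Rplp2 and Rpsa. Of 35006 gene names in the count files 82 matched, and the 77 with at least 10 counts in at least 2 of the 10 libraries were kept. The 77 comprised 46 large-subunit and 31 small-subunit genes.

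Each ribosomal protein is present in about a single copy per subunit, apart from the paired stalk proteins, so the genes are commonly expressed together at high levels in growing cells. Their mRNAs begin with a short run of pyrimidines, the terminal oligopyrimidine (TOP) sequence, through which growth signals carried by mTOR and Larp1 control how much of each mRNA is translated. In the intestinal crypt, stem and transit-amplifying cells divide quickly and make new ribosomes, whereas Paneth, goblet and enteroendocrine cells no longer divide and make secreted protein.

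The study sorted live EpCAM+ cells of small-intestinal crypts from C57BL6/J mice that carry the OSCAR reporter, a fusion of mCherry, a P2A peptide and the fluorescent VeN90 protein, at Rosa26 under the EF1a promoter. A stop cassette had been removed in the germ line with Vasa-Cre, so all cells could express it and all 5 populations shared these alleles. VeN90 loses fluorescence when CDK9, a kinase of RNA polymerase II, phosphorylates it, and a high OSCAR ratio was therefore read as low polymerase activity. The question was how populations that differ in this reporter differ in their transcripts.

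The labels give the gate as the genotype: P1 was OSCARlow EF1alow, P2 OSCARhigh EF1alow, P3 OSCARlow EF1ahigh, P4 OSCARmed EF1alow and P5 OSCARmed EF1ahigh. Every population had 2 libraries, each from 10000 sorted cells, sequenced as poly-A RNA over 75 cycles. The labels give no age or treatment, and nothing in them says whether the replicates came from separate animals, although the paper calls them biological replicates. The p-values below therefore measure the spread between these libraries.

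The libraries held 3857612 to 6485823 counts on genes, of which 1574312 to 6291242 were nuclear. In the libraries labelled P3 mitochondrial genes made up 59.2% and 36.1% of all gene counts, compared with 1.04% to 5.19% elsewhere. The 10 most abundant nuclear genes took 48.4% and 41.7% of nuclear counts in the libraries labelled P2, where the Paneth gene Lyz1 led with 18.4% and 13.1%, against 4.08% to 11% elsewhere. Both P2 and P3 libraries therefore stood apart from the rest before any ribosomal protein gene was looked at.

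The epithelial markers Epcam, Cdh1, Krt8, Krt18, Krt19, Cdx1 and Cdx2, summed, were high in every library, at 4028 to 9269 TMM CPM, that is, nuclear counts relative to the library size after TMM scaling. The study's account puts secretory cell types in P3, from gene set enrichment and normalized counts of its own RNA-seq of these populations. In the deposited counts of that RNA-seq they marked the libraries labelled P2. The summed Paneth markers, 7 genes led by Lyz1, stood at 694971 and 459129 TMM CPM for P2, 20881 and 68598 for P1, 3671 and 2097 for P3, 635 and 1029 for P4, and 12986 and 2628 for P5. The 8 goblet markers, led by Fcgbp, stood at 62656 and 137125 for P2 and at 2079 to 12706 in the other libraries. The 8 enteroendocrine markers, led by Gip, stood at 5878 and 13229 for P2 and at 23.8 to 744 elsewhere, and the 8 tuft markers, led by Trpm5, at 946 and 1534 for P2 and at 33.1 to 272 elsewhere. Krt19 stood at 330 and 622 TMM CPM in the libraries labelled P2 and at 2891 and 1900 in those labelled P3. The study reports Tert and Krt19 enriched for P2. By staining of tissue, it also finds cells with a high OSCAR ratio negative for Ki67 protein. Mki67 mRNA stood at 39.9 and 31.8 TMM CPM for P2 and at 309 and 645 for P3. This is mRNA of sorted populations, not protein in single cells. The part of the secretory cell types in the low P2 values was not tested. The study further backs its account with RT-qPCR of markers and gives P2 the lowest RNA content per cell, and counts cannot test these last measures. No library was renamed, and the reason for the conflict was not tested. If the labels P2 and P3 stood for each other's gates, the gates named would change in the comparisons with P2 or P3, and would not in P1 against P4 and P5 against P4.

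Other cell types also divided the populations. The 9 enterocyte markers, led by Fabp2, summed to 42471 and 34329 TMM CPM for P1, 1513 and 4627 for P2, 21218 and 7082 for P3, 9669 and 3229 for P4, and 17011 and 6196 for P5. The 7 stem cell markers, led by Olfm4, summed to 703 and 1022 for P1, 2013 and 1176 for P2, 573 and 3489 for P3, 6086 and 8692 for P4, and 5136 and 8386 for P5. P4 and P5 thus held the highest stem cell levels and P1 the highest enterocyte levels. The 10 mitosis genes, led by Mki67, summed to 367 and 381 for P1, 379 and 257 for P2, 1039 and 1730 for P3, 859 and 883 for P4, and 1689 and 2634 for P5. The 8 lymphocyte markers, led by Gzma, reached 1111 and 327 for P1 and 2.28 to 182 elsewhere. Red blood cell genes, 4 led by Hbb-b1, reached 208 and 120 for P3 and 33.8 in P1 replicate 2, and stayed between 0 and 3.85 in the other 7 libraries. The 5 stroma and vessel markers, led by Pecam1, stayed between 0.377 and 5.69. Tnfrsf19 had 0 counts in P3 replicate 1, Pou2f3 and Tac1 had 0 in both P3 libraries, and Cd3e had 0 in both P2 libraries. None of the 4 red blood cell genes passed the test in any comparison described here, and neither did Pecam1, the 1 stroma and vessel gene tested.

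Ribosomal protein mRNA was scarce in P1 and P2 and plentiful in P3, P4 and P5. The 77 genes together took 0.469% of nuclear counts (Wilson 95% confidence interval 0.463% to 0.474%) and 0.397% (0.393% to 0.402%) in P1. In P2 the shares were 0.388% (0.383% to 0.394%) and 0.299% (0.295% to 0.303%). In P3 they were 1.44% (1.42% to 1.46%) and 1.85% (1.84% to 1.87%). Both of those low pairs lay far below the P3 pair. P4 held 1.66% (1.64% to 1.67%) and 1.80% (1.79% to 1.81%), and P5 held 1.41% (1.40% to 1.42%) and 1.52% (1.51% to 1.53%). The intervals cover counting error only, as do all detection floors here, and the replicates of a population lay further apart than their intervals. Whether a population held fewer cells rich in ribosomal protein mRNA or less of this mRNA per cell cannot be told apart in bulk libraries.

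After TMM scaling the summed level was 5180 and 4516 CPM for P1, 6919 and 4827 for P2, 13032 and 14369 for P3, 13302 and 13661 for P4, and 11955 and 11777 for P5. No P1 or P2 library reached the lowest library of P3, P4 or P5. The mean was 4848 ± 469 (SD, n = 2) in P1, 5873 ± 1480 in P2, 13701 ± 945 in P3, 13482 ± 254 in P4 and 11866 ± 126 in P5. P3 and P4 did not differ beyond the spread of their libraries, and neither did P1 and P2, whereas both P5 libraries lay below those of P3 and P4 in TMM CPM. As a share of nuclear counts P5 replicate 2, at 1.52%, lay above P3 replicate 1, at 1.44%. The order of P1 and P2 also turned with the scaling: P2 was 1.21 times P1 in TMM CPM and 0.794 times P1 as a share of nuclear counts. P4 stood above P1 on both scales, 2.78-fold in TMM CPM and 3.99-fold as a share.

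**Figure D1:**
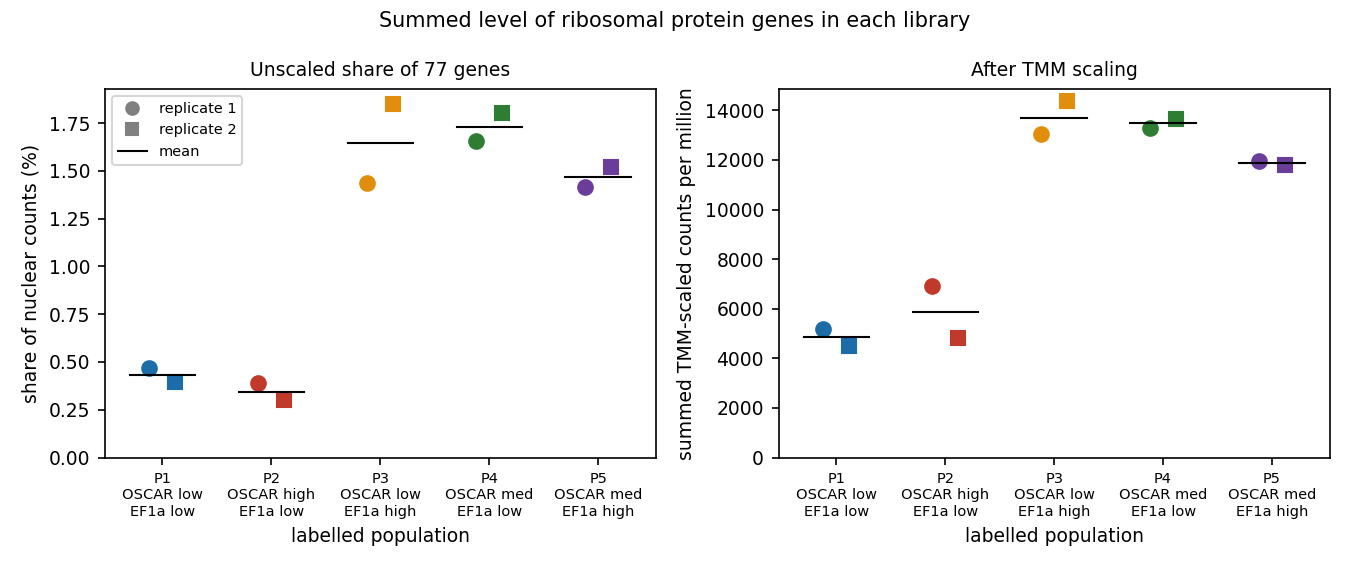
The left panel plots the share of nuclear counts, in percent, taken by the 77 ribosomal protein genes in each of the 10 libraries, and the right panel their summed TMM CPM; circles are replicate 1, squares replicate 2 and lines the means. P1 and P2 lie at 0.299% to 0.469% and P3 to P5 at 1.41% to 1.85%, while P2 lies below P1 in the left panel and above it on average in the right.

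Large-subunit and small-subunit genes kept close to each other. Large-subunit genes summed to 2695 and 2394 TMM CPM for P1, 3870 and 2672 for P2, 6948 and 7520 for P3, 7138 and 7299 for P4, and 6356 and 6271 for P5. Small-subunit genes summed to 2485 and 2122 for P1, 3050 and 2155 for P2, 6084 and 6849 for P3, 6164 and 6362 for P4, and 5599 and 5506 for P5. The ratio of large-subunit to small-subunit counts was 1.27 and 1.24 for P2 and lay between 1.08 and 1.16 in the other 8 libraries, so P2 stood above all of them. A few genes carried a large part of the counts: Rpl4 alone gave 11.6% of them and the first 7 genes 49.4%.

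The genes moved largely together. Across the 10 libraries the Pearson correlation of a gene's log2 level with the median of the family had a median of 0.957, with 49 of 77 genes above 0.9, a description over libraries that fall into 2 clusters. Below 0.5 were Rps27l (-0.382), Rpl10 (0.259), Rps6 (0.309), Rpl24 (0.423) and Rpl38 (0.491), picked out after their values were seen. Rps27l, the paralog of Rps27 that p53 induces, was the gene with a negative value.

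**Figure D2:**
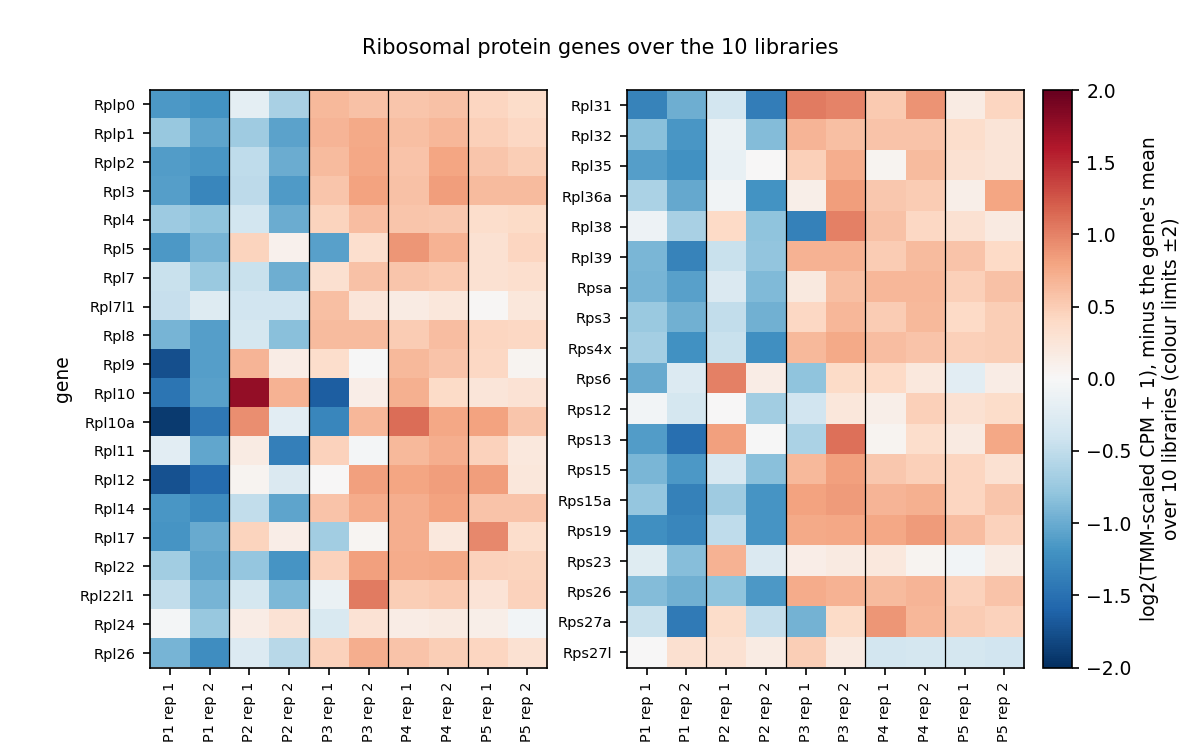
Each line of the heat map is a ribosomal protein gene named in the text and each column one of the 10 libraries, with colour giving log2(TMM CPM + 1) minus the gene's own mean, limited to 2 on either side. Most of these genes are blue in P1 and P2 and red in P3, P4 and P5. Rps27l, with a correlation to the family median of -0.382, runs the other way except in P3, where it is high too. Its direction turns for P2 without TMM factors.

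The comparison of P1 with P4 asks what differs between low and medium OSCAR when EF1a is low in both. Ribosomal protein genes fell across the family in P1. Of the 77 genes 52 were lower and 0 higher at an adjusted p under 0.01, where 23.8% of the 13887 genes tested were called, 12.6% lower and 11.1% higher. The median log2 fold change was -1.58 over the 77 genes and -0.26 over all genes, and 76 of the 77 were negative. Of large-subunit genes 30 of 46 fell, and of small-subunit genes 22 of 31. The middle 90% of the family lay between -2.36 and -0.75, inside the span of all genes, -2.43 to 2.84. Without TMM factors the median of all genes moved to -0.78 and that of the family to -2.10, so the family stayed 1.32 below all genes. The count changed with single libraries: 20 genes were called without P1 replicate 1, 17 without P1 replicate 2, 12 without P4 replicate 1 and 0 without P4 replicate 2, and none of the 52 was called in all 10 such fits. Over all genes the calls in these 4 fits were 865, 1220, 450 and 0, against 3301 with every library, while the family median lay between -1.77 and -1.46 with 76 of 77 genes negative. Without both P3 libraries it was 54, of which 53 were lower and Rps27l was higher. In the same comparison 5 of 7 stem cell markers fell, 6 of 7 Paneth, 6 of 8 lymphocyte and 2 of 9 enterocyte markers rose, and 1 of 10 mitosis, 1 of 8 goblet, 1 of 8 enteroendocrine and 1 of 7 epithelial genes fell. The part of these cell types in the fall of the ribosomal protein genes was not tested.

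P2 against P4 sets high against medium OSCAR at low EF1a. Here too ribosomal protein genes were lower: 31 of 77 fell and 0 rose, where 14.3% of all genes were called, 6.91% lower and 7.39% higher. The family median was -1.07 and that of all genes 0, with 71 genes negative. Small-subunit genes gave 17 of 31 falls and large-subunit genes 14 of 46. Without TMM factors 58 genes fell, where 5055 of all 13887 genes fell and 411 rose, and the family median was -2.20 and that of all genes -1.10, again about as far below all genes. Without P2 replicate 2 the count was 2, without P4 replicate 1 it was 2, without P4 replicate 2 it was 1, and without P5 replicate 1 or 2 it was 18 or 17, where 630, 407, 338, 1498 and 1493 of all genes were called, against 1986 with every library; Rps26 was the gene called in all 10 fits. Without both P3 libraries 34 genes were called. In this comparison 7 of 7 Paneth, 6 of 8 goblet, 4 of 8 enteroendocrine and 3 of 8 tuft markers rose, 9 of 10 mitosis genes fell and 1 rose, and 1 of 7 stem cell and 1 of 9 enterocyte markers fell, while 1 of 7 epithelial markers rose and 1 fell. Whether the change in cell types carried the fall of the ribosomal protein genes was not tested.

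P2 against P1 sets high against low OSCAR at low EF1a. Of the 77 genes 3 rose and 0 fell, a share below the background, where 28.5% of all genes were called, 15.4% higher and 13% lower. The 3 were large-subunit genes, Rpl10, Rpl9 and Rpl12. The family median was 0.45 with TMM factors, against 0.16 over all genes, and -0.16 without them, against -0.43, so the direction of the family turned with the scaling, while it lay 0.29 and 0.27 above all genes. With TMM factors the family median was 0.13 without P2 replicate 1, 0.05 above all genes, 0.33 without P1 replicate 2, 0.09 above, and 0.71 without P2 replicate 2, 0.58 above. With TMM factors 69 genes were positive, and without them 25, when 1 gene was called higher and 1 lower, against 1164 higher and 3186 lower over all genes. The count was 0 without P1 replicate 1, 1 without P1 replicate 2, 0 without P2 replicate 1, 2 without P4 replicate 1 or 2, and 5 without P3 replicate 1, replicate 2 or both, while 1693 to 5122 of all genes were called in these fits. Paneth, goblet, enteroendocrine and tuft markers rose in 4 of 7, 7 of 8, 7 of 8 and 4 of 8 cases, 2 of 7 stem cell markers rose, and 5 of 9 enterocyte, 5 of 8 lymphocyte and 9 of 10 mitosis genes fell, with 1 mitosis gene higher. Of 7 epithelial markers 2 rose and 1 fell. Their part in the 3 rises was not tested.

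P3 against P1 sets high against low EF1a at low OSCAR. Ribosomal protein genes rose widely: 47 of 77 were higher and 0 lower, where 16.2% of all genes were called, 8.9% higher and 7.28% lower. All 77 genes were positive, with a median of 1.54 against 0.03 over all genes. Of large-subunit genes 27 of 46 rose, and of small-subunit genes 20 of 31. Without TMM factors the median was 1.98 against 0.46. Both P3 libraries were rich in mitochondrial counts, and the count of rises was 4 without P1 replicate 1, 7 without P1 replicate 2 and 30 without P3 replicate 2. Calls over all genes in these fits were 153, 498 and 1245, against 2247 with every library, and the family medians were 1.70, 1.46 and 1.40. Rps15a and Rpl26, a large-subunit gene named after its values were seen, were called in all 10 such fits, at adjusted p of at most 0.00962 and 0.00977. When only the 4 libraries compared were fitted, edgeR called 0 of the 73 family members tested there and 0 of all 11873 genes, with 58 of the 73 at an unadjusted p under 0.05, whereas DESeq2 on all 10 libraries called 49. In this comparison 7 of 10 mitosis genes, 3 of 7 epithelial and 1 of 7 stem cell markers rose, and 2 of 7 Paneth and 1 of 9 enterocyte markers fell. Their part in the rise was not tested.

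P3 against P5 sets low against medium OSCAR at high EF1a. EdgeR called 0 of 77 ribosomal protein genes and 0% of all genes in either direction, higher or lower. At an unadjusted p under 0.05 there were 3 family members, and DESeq2 called 0. The median was 0.20 against -0.06 over all genes, with 60 genes positive. The smallest adjusted p was 0.348, for Rps27l. No marker list had a called gene.

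P5 against P4 sets high against low EF1a at medium OSCAR. EdgeR again called 0 of 77 and 0% of all genes, 0% higher and 0% lower, with 0 family members at an unadjusted p under 0.05, and DESeq2 called 0. The median was -0.20 against -0.03, and 74 of 77 genes were negative. The middle 90% of the family spanned -0.46 to -0.03, narrower than the -0.73 to 0.96 of all genes. No single gene passed, although both P5 libraries lay below both P4 libraries in summed level, in TMM CPM and as a share of nuclear counts. No marker list had a called gene here either.

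The EF1a comparison was also tested for whether it differed between the OSCAR gates, as the P3 to P1 difference minus the P5 to P4 difference. Of the 77 genes 19 were called higher and 0 lower, where 2.7% of all genes were called, 1.5% higher and 1.2% lower. The median of this difference was 1.77 over the family and 0.09 over all genes, and all 77 were positive. Among the 19 were Rplp0, Rplp2, Rpl22, Rpl39, Rps19, Rps26, Rps15a and Rps15. Large-subunit genes gave 11 and small-subunit genes 8. The adjusted p-values were close to the threshold, from 0.00839 up, and the count was 6 without P2 replicate 1 and 0 without each of the other 9 libraries in turn. Over all genes the calls were 124 and 0 in these fits, with family medians of 1.63 to 1.94. DESeq2 called 45, and 2045 of all genes. Of the markers 2 of 7 Paneth genes were called, both lower, and their part was not tested.

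**Figure D3:**
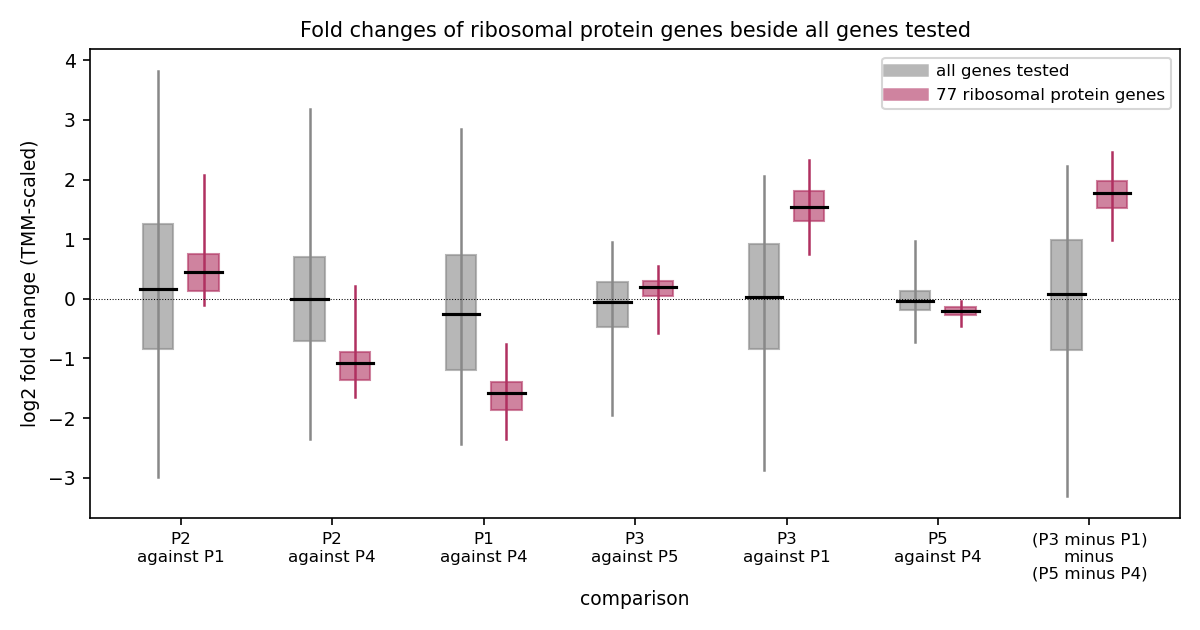
For each comparison the plot gives log2 fold changes of all 13887 genes tested (grey) and of the 77 ribosomal protein genes (red): boxes span the 25th to 75th percentile, lines the 5th to 95th, and black marks are medians. The red boxes lie low for P1 against P4 (median -1.58) and P2 against P4 (-1.07), high for P3 against P1 (1.54), near 0 for P5 against P4 (-0.20), and at 0.45 for P2 against P1, which turns to -0.16 without TMM factors.

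Among large-subunit genes the highest levels per length belonged to Rpl8, the stalk gene Rplp1, Rpl4 and Rpl32, with 936, 822, 811 and 604 mean TMM CPM per kb of exon. Rpl8, whose protein lies beside the site where peptide bonds form, maps to chr15:76734501-76736748 on the plus strand of mm9. Its level was 380.3 and 337.7 TMM CPM for P1, 571.7 and 406.5 for P2, 1126 and 1132 for P3, 1042 and 1118 for P4, and 984 and 973.2 for P5. In TMM CPM the P1 libraries were the lowest and P3 the highest, and no P1 or P2 value reached those of the other populations. For the family as a whole the order of P1 and P2 turned without TMM factors. Rpl8 fell by 1.59 ± 0.26 (SE, n = 2 per population) on the log2 scale in P1 against P4, adjusted p = 0.00216. Rpl4, which lines the tunnel through which the new peptide leaves, was also low in P1 and P2, with 645 and 607 TMM CPM for P1, 822 and 534 for P2, and 1562 and 1545 for P4. It also fell in P1, by 1.31, adjusted p = 0.00701. Rpl32 rose in P3 against P1 by 1.64, adjusted p = 0.00288. The Rpl8 call was lost without P1 replicate 1 (adjusted p = 0.0144), P1 replicate 2 (0.0177), P4 replicate 1 (0.0142) or P4 replicate 2 (0.0207). The Rpl4 call was lost without either P1, P4 or P5 library or P3 replicate 1, at adjusted p of 0.0104 to 0.0441. That of Rpl32 was lost without P1 replicate 1 (0.0160) or 2 (0.0244).

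Some large-subunit genes with few counts showed the widest changes. Rpl12, at the base of the stalk, stood at 5.23 and 6.20 TMM CPM for P1, 20.7 and 16.2 for P2, 20.1 and 35.9 for P3, 35.3 and 36.2 for P4, and 36.3 and 23.5 for P5. Both P1 libraries lay below all others by a wide margin. It was 6.23-fold lower in P1 than in P4 (log2 -2.64 ± 0.36, adjusted p = 0.00119), 4.97-fold higher in P3 than in P1 (adjusted p = 0.00249) and 3.20-fold higher in P2 than in P1 (adjusted p = 0.00556). Without TMM factors the last of these was 1.08 on the log2 scale with adjusted p = 0.0412. The call against P4 was lost without P1 replicate 1 (0.0112) or P4 replicate 2 (0.0120), and that in P3 without P1 replicate 1 (0.0216), P1 replicate 2 (0.0153) or P3 replicate 2 (0.0114). That in P2 was lost without P1 replicate 1 (0.0399), P1 replicate 2 (0.0243), P2 replicate 1 (0.0378), P2 replicate 2 (0.0144), or either P4 library (0.0111).

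Rpl10, whose protein joins the large subunit late in its assembly, maps to chrX:71516151-71518474 on the plus strand. It stood at 5.41 and 7.30 TMM CPM for P1, 58.4 and 27.5 for P2, 4.60 and 18.4 for P3, 28.0 and 21.9 for P4, and 19.9 and 20.6 for P5. In TMM CPM its pattern was unlike that of the family, with the peak in P2 and one P3 library as low as P1. Rpl10 rose 6.69-fold in P2 against P1 (log2 2.74 ± 0.56, adjusted p = 0.00398). The call was lost without TMM factors (log2 2.13, adjusted p = 0.0125) and without P1 replicate 1 (0.0347), P1 replicate 2 (0.0215) or P2 replicate 1 (0.0345). Rpl9, another large-subunit gene, stood at 3.25 and 5.66 TMM CPM for P1, 21.8 and 14.9 for P2, and 13.2 to 21.3 in the other libraries. P1 lay below every other library. Rpl9 rose 4.09-fold in P2 against P1 (adjusted p = 0.00267), a call lost without P1 replicate 1 (0.0216) or P2 replicate 1 (0.0224). In P1 it was 4.65-fold lower than in P4 (adjusted p = 0.00229), a call lost without P1 replicate 1 (0.0185), P4 replicate 1 (0.0155) or P4 replicate 2 (0.0176). When the counts of its named pseudogenes were added to Rpl9, its log2 change in P2 against P1 was 0.69 with adjusted p = 0.0475, and that in P1 against P4 was -1.32 with adjusted p = 0.00365.

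Rpl10a forms the mobile arm of the large subunit past which used transfer RNAs leave. Its level was 7.93 and 11.5 TMM CPM for P1, 63.3 and 28.0 for P2, 12.7 and 52.2 for P3, 72.2 and 56.2 for P4, and 57.8 and 48.3 for P5. One P3 replicate lay near P1 and the other within the range of P5. Rpl10a was 6.60-fold lower in P1 than in P4 (log2 -2.72, adjusted p = 0.00642). With the counts of its named pseudogenes added, the log2 change was smaller, -1.81, with adjusted p = 0.00131. Rpl31, near the exit of the peptide tunnel, stood at 1.62 and 2.37 for P1, 4.14 and 1.54 for P2, 12.7 and 12.2 for P3, 8.51 and 11.4 for P4, and 6.37 and 7.87 for P5. It separated P1 and P2 from the other populations without overlap. Rpl31 was 4.94-fold lower in P1 than in P4 (adjusted p = 0.00719) and 6.14-fold higher in P3 than in P1 (adjusted p = 0.00626). Rpl35, also near the tunnel exit, stood at 1.26 and 1.09 for P1 and 5.75 and 6.98 for P3. It rose 5.36-fold, adjusted p = 0.00948, although 66.2% of its exon bases overlap Wdr38 and its counts were 6 to 54 per library. These calls were close to the threshold. That of Rpl35 was lost without each of the 10 libraries in turn (adjusted p 0.0129 to 0.0504). Rpl31 lost its call in P3 without each library of P1, P3, P4 and P5 in turn (0.0111 to 0.0450), and in P1 against P4 without each library of P1, P4 and P5 (0.0147 to 0.0587). Rpl10a lost its call without P1 replicate 1 (0.0529) or 2 (0.0293), P4 replicate 1 (0.0291) or 2 (0.0226), or P5 replicate 1 (0.0101).

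Rpl5 and Rpl11, which bind Mdm2 when they are not in ribosomes, were among the 6 genes with the lowest level per length, at 2.08 and 2.30 TMM CPM per kb. These lengths join all annotated exons, 3920 and 2697 bases. The transcripts with the longest coding sequence have 2045 and 833 bases. Of the Rpl5 exon bases 26.7% overlap Fam69a or Snord21. Rpl5 had 15 and 18 counts in P1 and 91 and 101 for P4. It fell in P1 against P4 by 2.13 ± 0.50 on the log2 scale, adjusted p = 0.00909, a call lost without each library of P1, P2, P4 and P5 in turn (0.0148 to 0.0594). Rpl11, with 26 and 12 counts in P1 and 60 and 82 for P4, did not pass (log2 -1.48, adjusted p = 0.0836). Rpl24, the gene with the smallest spread between populations, stood at 27.2 and 16.2 TMM CPM for P1, 31.3 and 34.4 for P2, 22.4 and 34.6 for P3, 31.1 and 31.9 for P4, and 30.5 and 27.2 for P5. Its highest population mean was 1.51 times its lowest, and P1 against P4 gave log2 -0.53 ± 0.30, adjusted p = 0.175. Rpl17 had the widest spread among large-subunit genes, 7.27-fold between the highest and lowest mean, on 3 and 4 counts in P1 and 42 and 27 for P5, and it passed no test.

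Among small-subunit genes Rps15, next to the decoding site, had one of the highest levels per length, 458 TMM CPM per kb. It stood at 142.3 and 121.5 TMM CPM for P1, 215.8 and 149.6 for P2, 422.9 and 473.7 for P3, 391.7 and 377 for P4, and 361.6 and 333.3 for P5. P1 held its lowest values in TMM CPM, where it lay below P2, an order that turned for the family without TMM factors. It was called in P1 against P4 (log2 -1.54, adjusted p = 0.00162). The call was lost without P1 replicate 1 (0.0108) or 2 (0.0140) or P4 replicate 1 (0.0132) or 2 (0.0149).

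Rps19, the gene most often mutated in Diamond-Blackfan anaemia, maps to chr7:25669390-25674825 on the plus strand. Its level was 25.97 and 24.6 TMM CPM for P1, 43.3 and 26.9 for P2, 105 and 107 for P3, 107 and 113 for P4, and 96.3 and 85.5 for P5. P1 and P2 lay well under the other populations, and P3, P4 and P5 lay close together. Rps19 fell by 2.12 ± 0.23 on the log2 scale in P1 against P4 (adjusted p = 0.000887) and by 1.65 in P2 against P4 (adjusted p = 0.00141). In P3 it was 4.19-fold higher than in P1 (adjusted p = 0.00126). The difference between OSCAR gates was 2.34 ± 0.32, adjusted p = 0.00839. The P1 call was lost without P4 replicate 2 (0.0120), the P2 call without P4 replicate 1 (0.0104) or 2 (0.0131) and the P3 call without P1 replicate 1 (0.0102). The call between OSCAR gates was lost without each library except P2 replicate 1 (adjusted p 0.01002 to 0.0517).

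Rps26 in P2 against P4 and Rps15a in P3 against P1 were called in all 10 fits with a library left out, as was Rpl26 in P3 against P1. Rps26 lies where mRNA leaves the ribosome, and Rps15a is a further small-subunit protein. Rps26 stood at 59.1 and 54.9 TMM CPM for P1, 61.4 and 48.5 for P2, 182 and 176 for P3, 168 and 174 for P4, and 149 and 161 for P5. Rps15a stood at 38.6 and 25.5 for P1, 40.3 and 28.7 for P2, 116 and 120 for P3, 107 and 109 for P4, and 89.4 and 97.6 for P5. Both split the libraries into a low group of P1 and P2 and a high group of the other 6, without overlap. In P2 against P4 Rps26 fell by 1.64 ± 0.19, adjusted p = 0.000704 and at most 0.00820 with any 1 library left out. Rps15a fell by 1.65 ± 0.24 in the same comparison, adjusted p = 0.00176, a call lost without P2 replicate 2 (0.0164), P4 replicate 1 (0.0119) or P4 replicate 2 (0.0146). In P3 against P1 it rose 3.68-fold, adjusted p = 0.00144.

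The promoters of 57 of the 77 genes could be matched by symbol in RefSeq on GRCm38.p6. They were searched because the genes moved together, and 6 were chosen after the values were seen: 4 genes called in P1 against P4 and the pair Rps27l and Rpl24, which were not. Each line runs from 60 bases before to 30 bases after the annotated start, and capitals mark CTTTC or CTTCC within 30 bases of the start, and CCGGAAG. The coordinates are chr9:120571457-120571546 (plus) for Rpl14, chr7:141447591-141447680 (plus) for Rplp2, chr7:118116118-118116207 (minus) for Rps15a, chr10:128626477-128626566 (minus) for Rps26, chr9:66946026-66946115 (plus) for Rps27l and chr16:55966215-55966304 (plus) for Rpl24.
Rpl14: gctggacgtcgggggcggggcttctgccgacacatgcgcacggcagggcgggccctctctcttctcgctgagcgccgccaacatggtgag
Rplp2: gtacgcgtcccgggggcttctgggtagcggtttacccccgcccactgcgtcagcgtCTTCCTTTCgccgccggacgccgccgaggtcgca
Rps15a: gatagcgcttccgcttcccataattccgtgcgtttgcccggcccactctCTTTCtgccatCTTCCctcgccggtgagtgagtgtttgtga
Rps26: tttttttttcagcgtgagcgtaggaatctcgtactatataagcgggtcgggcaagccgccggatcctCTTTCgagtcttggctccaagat
Rps27l: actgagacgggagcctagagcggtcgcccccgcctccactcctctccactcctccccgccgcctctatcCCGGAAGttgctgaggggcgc
Rpl24: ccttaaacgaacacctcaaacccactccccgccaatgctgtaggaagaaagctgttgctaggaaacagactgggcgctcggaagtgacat

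CTTTC, a run of the kind that opens TOP mRNAs, was searched on the strand that reads like the mRNA, within 30 bases on each side of the start. It occurred in 18 of the 57 promoters (31.6%), against 7.78% of all 27025 promoters. CTTCC on the same strand occurred in 20 (35.1%), against 12.7%, and 33 (57.9%) held at least 1 of the pair, against 19.2%. CCGGAAG, the core bound by ETS factors, was searched on both strands over 300 bases and occurred in 22 (38.6%), against 9.12%. The reverse complement of CCGGAAG contains CTTCC, so these counts overlap. Rplp2 and Rps15a held both short runs, Rps26 held CTTTC, Rps27l held CCGGAAG alone in the stretch shown, and Rpl14 and Rpl24 held none of them there. The matches describe letters in these windows and nothing about binding.

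Counts differed widely among the remaining small-subunit genes. Rps3, on the path by which mRNA enters and named after its values were seen, was abundant, at 463 and 396 TMM CPM for P1 and 1101 and 1215 for P4. Rps6, the main target of S6 kinase, was the lowest of all per length, at 1.24 TMM CPM per kb, with 1 to 18 counts per library and no call. Rps13 and Rps23 followed closely at 2.07 and 2.85 per kb. Rps13 spread most between populations, 10.3-fold between its highest and lowest mean, but on 3 and 1 counts in P1, which lie at or under a floor of 3 counts, and its adjusted p in P1 against P4 was 0.0369. Rps12 spread little, at 9.02 and 7.12 TMM CPM for P1 and 10.2 and 13.4 for P4, a 1.63-fold range of population means.

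The stalk, which contacts the translation factors, is built on Rplp0 with pairs of Rplp1 and Rplp2. Rplp0 stood at 210.8 and 206 TMM CPM for P1, 410.5 and 301.2 for P2, 739.3 and 704.3 for P3, 693.8 and 710.5 for P4, and 635.2 and 609.2 for P5. Rplp1 stood at 213.9 and 172.8 for P1, 218.8 and 170.6 for P2, 580.0 and 612.8 for P3, 548.6 and 571.9 for P4, and 499.6 and 482.3 for P5. Rplp2 stood at 25.97 and 25.2 for P1, 40.3 and 28.5 for P2, 89.8 and 99.3 for P3, 85.9 and 99.9 for P4, and 84.8 and 81.1 for P5. All 3 were lowest in P1 and P2. In TMM CPM both P2 libraries lay above both P1 libraries for Rplp0 and Rplp2, and the 2 populations overlapped for Rplp1. The order of P1 and P2 turned with the scaling for the family as a whole. They fell together in P1 against P4, by 1.75 ± 0.24 for Rplp0, 1.53 ± 0.23 for Rplp1 and 1.86 ± 0.21 for Rplp2, with adjusted p of 0.00116, 0.0015 and 0.000887. In P2 against P4 Rplp1 fell by 1.53 and Rplp2 by 1.44, whereas Rplp0 did not pass (log2 -0.98, adjusted p = 0.0133). In P3 against P1 the log2 changes were 1.79, 1.63 and 1.89 in the same order, each called. In P1 against P4 the calls were lost without P4 replicate 2 for Rplp0 (0.0130), Rplp1 (0.0156) and Rplp2 (0.0120), without P4 replicate 1 for Rplp0 (0.0104) and Rplp1 (0.0120), without P1 replicate 1 for Rplp0 (0.01001) and without P1 replicate 2 for Rplp1 (0.0130). In P2 against P4 Rplp1 and Rplp2 lost theirs without P2 replicate 2 (0.0159 and 0.0132), P4 replicate 1 (0.0146 and 0.0103) or P4 replicate 2 (0.0178 and 0.0177). In P3 against P1 the calls were lost without P1 replicate 1 (0.0131, 0.0119 and 0.0102) and, for Rplp0 and Rplp1, without P1 replicate 2 (0.0119 and 0.0149).

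Rpsa, also known as a laminin receptor precursor, stood at 31.9 and 28.5 TMM CPM for P1, 50.5 and 33.1 for P2, 70.8 and 94.1 for P3, 98.1 and 98.7 for P4, and 86.2 and 93.5 for P5. It followed the family, with P1 and P2 below the rest. Rpsa fell in P1 against P4 by 1.70 ± 0.24, adjusted p = 0.00124, a call lost without P1 replicate 2 (0.0106), P4 replicate 1 (0.0106) or P4 replicate 2 (0.0127). Rps27a, made as a fusion with ubiquitin, stood at 4.51 and 1.82 for P1, 8.66 and 4.36 for P2, 2.88 and 8.79 for P3, 12.8 and 10.9 for P4, and 9.70 and 9.26 for P5. Its log2 change in P1 against P4, -1.90 ± 0.60, did not pass (adjusted p = 0.0308).

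**Figure D4:**
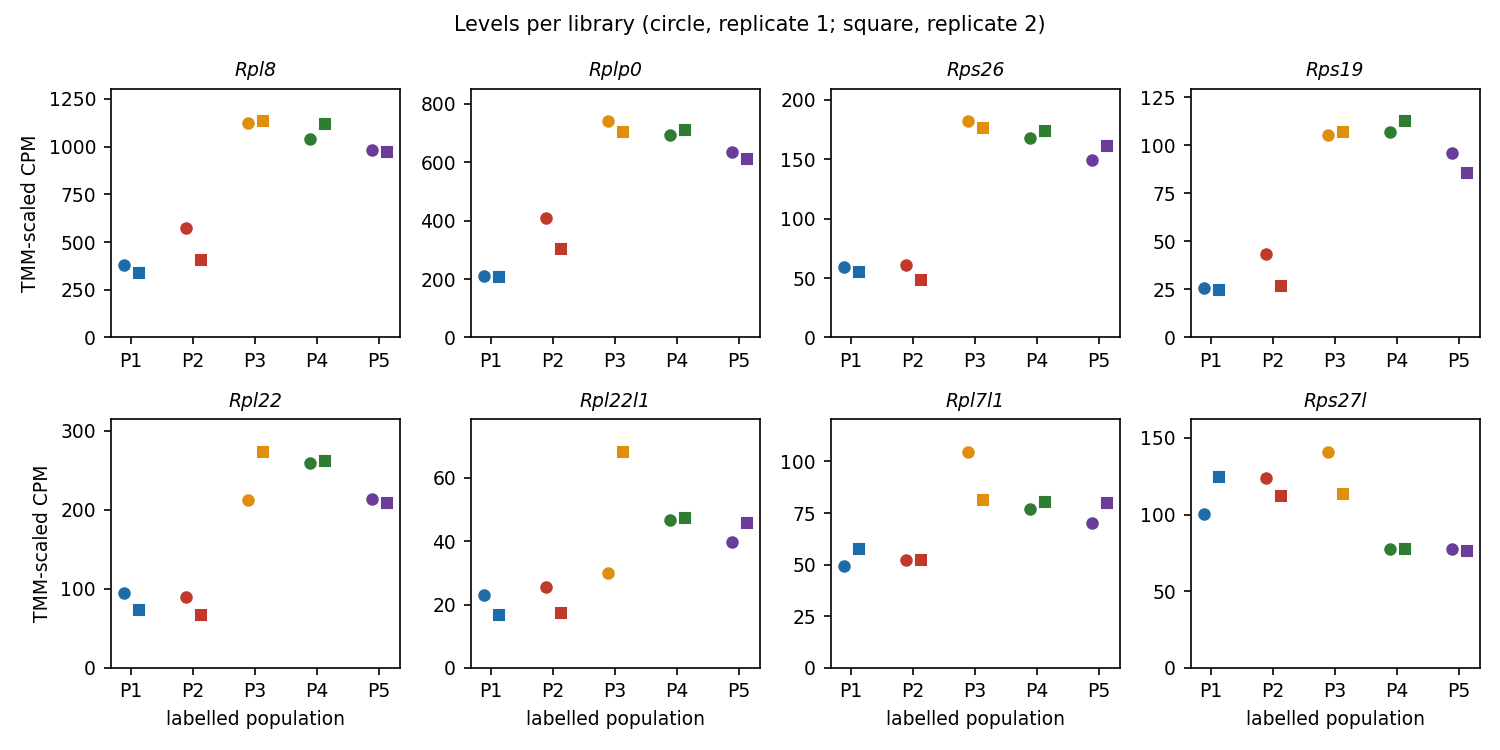
Each panel plots the TMM CPM of 1 gene in the 10 libraries, grouped by population, for Rpl8, Rplp0, Rps26, Rps19, Rpl22, Rpl22l1, Rpl7l1 and Rps27l. Rps19 lies at 24.6 to 43.3 in P1 and P2 and at 85.5 to 113 in the other populations, whereas Rps27l lies at 100.6 to 141 in P1, P2 and P3 and at 76.0 to 77.7 in P4 and P5, an order that turns for P2 without TMM factors.

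Some ribosomal proteins have paralogs encoded by genes of their own. Rpl22, an RNA-binding protein of the large subunit, stood at 94.8 and 73.7 TMM CPM for P1, 89.3 and 67.0 for P2, 212 and 273 for P3, 259 and 262 for P4, and 213 and 209 for P5. It fell in P2 against P4 by 1.74 ± 0.23 (adjusted p = 0.00119) and in P1 against P4 by 1.63 (adjusted p = 0.00127). The former call was lost without P2 replicate 2 (0.0113) or P4 replicate 2 (0.0112), and the latter without P1 replicate 2 (0.0107), P4 replicate 1 (0.0108) or P4 replicate 2 (0.0130). Its paralog Rpl22l1 stood at 23.1 and 16.8 for P1, 25.6 and 17.2 for P2, 29.9 and 68.3 for P3, 46.6 and 47.5 for P4, and 39.9 and 45.7 for P5. Its P3 libraries differed more than 2-fold from each other, with one near P1 and one above P4. Rpl22l1 did not pass in P1 against P4 (log2 -1.24 ± 0.37, adjusted p = 0.0245) or in P2 against P4 (log2 -1.15, adjusted p = 0.0485). It did pass without P3 replicate 1 (adjusted p = 0.00684 in P1 and 0.00838 for P2) or P3 replicate 2 (0.00410 and 0.00905), without both (0.00756 and 0.00958), without TMM factors (log2 -1.76 and -2.27, adjusted p = 0.00709 and 0.00169) and without the low-count filter (0.000646 and 0.00300).

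Rpl7l1, the paralog of Rpl7, stood at 49.4 and 57.5 TMM CPM for P1, 52.3 and 52.3 for P2, 105 and 81.4 for P3, 77.04 and 80.3 for P4, and 70.1 and 80.1 for P5. P1 and P2 lay below the other libraries, and P1 against P4 gave log2 -0.56 ± 0.19, adjusted p = 0.0395, against a called fall of 1.14 for Rpl7 (adjusted p = 0.00469). The Rpl7 call was lost without P1 replicate 1 (0.0183) or 2 (0.0363) or P4 replicate 1 (0.0294) or 2 (0.0313). The difference between the paralogs was not tested. Without TMM factors Rpl7l1 was called lower in P1 (log2 -1.08, adjusted p = 0.00250) and in P2 (-1.71, 0.000217).

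Rps27l maps to chr9:66793893-66797323 on the plus strand of mm9. It stood at 100.6 and 124.2 TMM CPM for P1, 123.5 and 111.9 for P2, 141 and 113.5 for P3, 77.3 and 77.6 for P4, and 77.7 and 76.0 for P5. All 6 libraries of P1, P2 and P3 lay above all 4 of P4 and P5. Against P4 the log2 change was 0.54 ± 0.19 in P1 (adjusted p = 0.0448) and 0.60 ± 0.19 in P2 (adjusted p = 0.0411), neither called by edgeR on all libraries. DESeq2 called both, at 0.74 (adjusted p = 0.00283) and 0.69 (adjusted p = 0.00822), and edgeR called P1 without P3 replicate 1 (0.70, adjusted p = 0.00897) or both P3 libraries (0.71, adjusted p = 0.00732). Without TMM factors the values were 0.01 in P1 and -0.52 in P2, so the direction in P2 turned with the scaling. The genes most like Rps27l over the 10 libraries were Alas2, Rai12 and Mospd3, with Pearson correlations of 0.971, 0.959 and 0.921, and those most like Rpl22l1 were Gm6274, Hnrnpa2b1 and Gm8741, with 0.989, 0.986 and 0.977.

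Other paralogs were at or near the floor. Rpl10l, Rpl39l and Rpl3l, known from testis or muscle, had 15, 17 and 2 counts in all 10 libraries together and were not kept. Rpl23a, with 10 counts, and Rps27, with 62, were not kept either. Of the windows of 75 bases in the Rps27 transcript 0.369% had no exact copy elsewhere in mm9. The counterparts Rpl3 and Rpl39, and the X-linked gene Rps4x, followed the family, whereas Rpl10 did not (correlation with the family median 0.259). Rpl3 had 29.6 and 25.5 TMM CPM for P1 and 97.5 and 116 for P4, Rpl39 had 13.9 and 10.0 against 38.98 and 42.1, and Rps4x had 118 and 81.7 against 294 and 284. They fell by 1.95, 1.76 and 1.53 for P1 against P4, adjusted p = 0.000955, 0.00127 and 0.00341. All 3 calls were lost without P4 replicate 2 (0.0120, 0.0143 and 0.0214), that of Rpl39 also without P4 replicate 1 (0.0108), and that of Rps4x also without P1 replicate 1 (0.0115) or 2 (0.0273) or P4 replicate 1 (0.0197). Rpl36a, on the X chromosome like Rpl10, Rpl39 and Rps4x, had 2.49 TMM CPM per kb, 4 to 55 counts per library and no call.

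Many ribosomal protein genes have near copies elsewhere in the genome. Processed pseudogenes of the family are numerous, and reads that map to several places were dropped by the authors. Of the 77 genes 74 had at least 1 window of 75 bases with an exact copy elsewhere in mm9, 41 had more than 50% of windows with one, and the median was 55.8%. In Rps6, Rpl10, Rpl9 and Rps13 only 5.47%, 5.93%, 6.79% and 11.8% of windows had no copy elsewhere, against 95.1% in Rpl8 and 90.8% in Rpl4. Other genes ran against this order: Rps12, with 2.03%, and Rpl3, with 10.96%, had 18.7 and 55.1 TMM CPM per kb, and Rpl24, with 100%, had 4.76. The Rpl24 values rest on long annotated models. Its windows came from a transcript of 4999 bases, and its level was divided by 6029 exon bases. Across the 77 genes the share of windows without a copy and the mean level per kb had a Spearman correlation of 0.527, where genes are not independent. The median level was 157 TMM CPM per kb in the 12 genes with at least 80% of windows free of copies and 17.5 in the 41 with under 50%. Whether dropped reads lowered the levels of single genes was not tested. The fall in P1 against P4 was present in both classes, with medians of -1.44 and -1.59 and 9 of 12 and 21 of 41 genes called. The 24 genes between them had a median of -1.72 with 22 called, where 12.6% of all genes fell. In P2 against P1 the medians were 0.11 and 0.60 with 0 of 12 and 2 of 41 called. Of the 24 genes between, 1 was called (median 0.41), where 28.5% of all genes were called. In P2 against P4 the medians were -1.25 and -1.02, with 6 of 12 and 10 of 41 called. The 24 between had 15 called (-1.20), where 6.91% of all genes fell. Spearman correlations of copy-free windows with log2 fold change were -0.345 in P2 against P4, -0.409 in P2 against P1 and 0.434 in P3 against P5. In the other comparisons they were 0.0508 to 0.213. The classes were chosen after the data were seen.

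**Figure D5:**
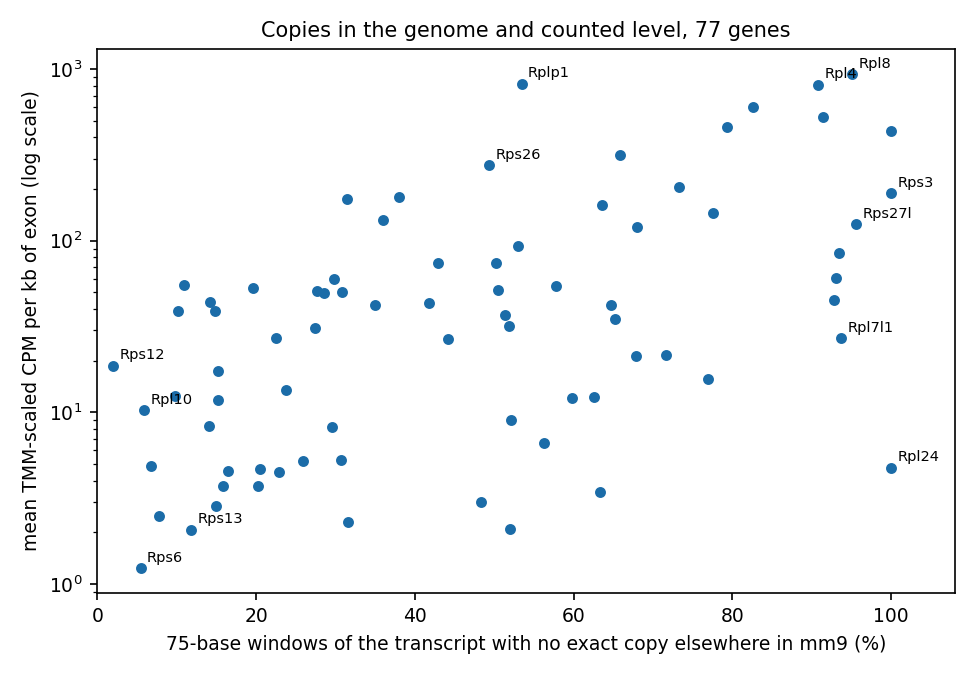
Each point is one of the 77 ribosomal protein genes, with the percentage of its 75-base windows that have no exact copy elsewhere in mm9 on the x axis and its mean TMM CPM per kb on a log y axis. Levels run from Rps6 at 1.24 to Rpl8 at 936, with a Spearman correlation of 0.527 over genes that are not independent.

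Genes annotated as pseudogenes of the family were counted too. Of 156 such names 55 had 0 counts in all libraries and 34 were tested. Rpl14-ps1, the most abundant, stood at 157.6 and 122.8 TMM CPM for P1, 193.6 and 125.7 for P2, 441.9 and 534.7 for P3, 456.8 and 485.2 for P4, and 392.8 and 399.2 for P5. It ran like the parent family, low in P1 and P2. Of the 34, 23 fell in P1 against P4 (median -1.53), 16 fell in P2 against P4 (-1.22), 23 rose in P3 against P1 (1.67), 0 were called in P2 against P1, P3 against P5 and P5 against P4, and 10 were called higher for the difference between OSCAR gates (1.85). Of all genes 12.6% fell, 6.91% fell, 8.9% rose and 1.5% were higher in P1 against P4, P2 against P4, P3 against P1 and between gates. As over all genes, the pseudogene calls in P1 against P4 were lost without P4 replicate 2. Those between OSCAR gates were lost without any 1 library other than P2 replicate 1. Whether reads of parent genes were counted on pseudogenes was not tested.

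Gnb2l1, the scaffold protein Rack1 of the small subunit, has a name outside the pattern. It stood at 541.9 and 530.2 TMM CPM for P1, 994.2 and 586.3 for P2, 1700.2 and 1903 for P3, 1815 and 1835 for P4, and 1561 and 1596 for P5. It was low in P1 and P2 like the family and fell in P1 against P4 by 1.77 ± 0.32, adjusted p = 0.00291. In P3 against P1 it rose by 1.75, adjusted p = 0.00418, and it was not called in the other comparisons. Other ribosomal proteins with names outside the pattern are not described here, and Gnb2l1 does not stand for them.

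Of 18 other TOP mRNAs, which encode elongation factors and related proteins, 10 fell in P1 against P4 (median -1.09), 7 fell in P2 against P4 (-0.89) and 5 rose in P3 against P1 (1.02), where 12.6% of all genes fell, 6.91% fell and 8.9% rose. Gas5, a noncoding TOP transcript, fell by 2.05 in P1 against P4, Hnrnpa1 by 1.88 and the elongation factor genes Eef1b2 and Eef1g by 1.65 and 1.58. In P2 against P1 1 of 18 fell, Btf3, by 0.94 (median 0.05), where 13% of all genes fell, and Eef1g was the called gene for the difference between OSCAR gates (1.80), where 1.5% of all genes were higher. None passed in P3 against P5 or P5 against P4. Here and in the lists below, the calls in P1 against P4 were lost without P4 replicate 2. Those between OSCAR gates were lost without any 1 library other than P2 replicate 1.

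A further list held 13 regulators of TOP translation. Larp1, which binds the TOP sequence, stood at 102 and 133 TMM CPM for P1, 223 and 194 for P2, 238 and 226 for P3, 247 and 288 for P4, and 232 and 272 for P5. P1 was its lowest population, and it fell by 1.19 in P1 against P4 and rose by 0.98 in P3 against P1. Of the 13 genes 2 fell in P1 against P4, Larp1 and Tsc1 (-0.85), and 1 rose, Rheb (0.94), with a median of -0.34, where 23.8% of all genes were called in either direction. Eif4ebp1, an mTOR target that holds back translation, stood at 140.1 and 74.4 for P2 and at 12.3 to 23.97 elsewhere. It rose in P2 by 2.43 against P1 (adjusted p = 0.00119) and by 2.52 against P4 (adjusted p = 0.00201), where it was the called gene of the list (median 0.12) and 7.39% of all genes rose. Tsc1 (1.41) and Pdcd4 (0.93) also rose in P2 against P1, 3 of 13 in all with a median of 0.61, where 28.5% of all genes were called. In P3 against P1 the called gene was Larp1 (median 0.32), where 8.9% of all genes rose, and 0 were called in P3 against P5, in P5 against P4 and between OSCAR gates.

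Chaperones of ribosomal proteins and late maturation factors were called in both directions. Of 18 tested genes 7 fell and 2 rose in P1 against P4 (median -0.76), where 12.6% of all genes fell and 11.1% rose. The share of rises was no larger than that of all genes. Grwd1 and Heatr3, which escort Rpl3 and Rpl5, fell by 2.39 and 2.29, and Nob1, which trims small-subunit RNA, by 2.23. Sbds and Eif6, which act on the large subunit before it can join the small one, rose by 2.37 and 1.56. Eif6 stood at 404 and 475 TMM CPM for P1 and 103 to 209 elsewhere, and Sbds at 312 and 213 for P1 and 43.8 to 86.3 elsewhere, so both were high in P1 alone. In P2 against P1 3 rose and 2 fell (median 0.33), among them Tsr1 (2.48) and Sbds (-1.90), where 15.4% of all genes rose and 13% fell. Both shares were near those of all genes. For P3 against P1 5 rose and 2 fell (0.69), against 8.9% and 7.28% of all genes. For the difference between OSCAR gates Heatr3 was called (2.28, list median 0.77), where 1.5% of all genes were higher. P2 against P4 (-0.42), P3 against P5 and P5 against P4 had 0 called.

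Mitochondrial ribosomal protein genes, which build a separate ribosome, stood in another order in TMM CPM. Summed over 76 genes they stood at 2456 and 2687 TMM CPM for P1, 1674 and 1614 for P2, 3350 and 3959 for P3, 3007 and 3228 for P4, and 2897 and 3094 for P5. P2, not P1, was lowest on this scale. As a share of nuclear counts the cytoplasmic family was lowest in P2 too, with a mean of 0.344% against 0.433% in P1. Of 74 tested 20 fell in P2 against P1 (median -0.62), where 13% of all genes fell, and 23 fell in P2 against P4 (-0.96), where 6.91% did. In P1 against P4 12 fell and 2 rose (-0.34), against 12.6% of all genes lower and 11.1% higher. In P3 against P1 13 rose (0.69), where 8.9% of all genes did, and 1, Mrps2, was called between OSCAR gates (0.77), where 1.5% of all genes were higher. Mrps31 fell by 1.73 in P2 against P1 and Mrps9 by 2.07 in P2 against P4. P3 against P5 and P5 against P4 had 0 called. In P2 against P1 the cytoplasmic family thus gave 3 rises and the mitochondrial family 20 falls, a difference between lists that was not tested.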

How the data were processed

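The deposited values were counts per gene that the authors made with FastQC 0.11.5, TopHat2 2.1.0 with Bowtie against mm9, and HTSeq 0.11.2, with multiply mapped reads dropped. The annotation they used is not stated. Of 35006 gene names 33643 were found in GENCODE annotation of mm9, which gave positions, exon lengths and gene types. The 37 mitochondrial and 204 ribosomal RNA names were removed before library sizes were summed. A nameless entry held 11 to 33 counts per library (0.000192% to 0.000596%).

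Counts of all 10 libraries were fitted with edgeR 4.0.16 (R 4.3.3) with 1 mean per population, filterByExpr, TMM factors of 0.562 to 1.32 and quasi-likelihood F tests, with Benjamini-Hochberg adjustment over 13887 genes. Genes were called at an adjusted p under 0.01. Standard errors were derived from the F statistic. Contrasts share libraries, so they are not independent. Tables, windows and figures were made in Python 3.11.15 with matplotlib 3.10.9, scipy 1.17.1, pandas 2.3.3 and numpy 2.4.6. Member counts were 18373 to 112802 per library, which gave 95% intervals of the family's share with half-widths of 0.00427 to 0.0186 percentage points. A floor of 3 counts corresponds to 0.363 to 1.73 TMM CPM.

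Windows of 75 bases were taken from the transcript with the longest coding sequence of each gene and compared exactly with mm9. Genes were named from fixed criteria: those among the 6 highest and 6 lowest levels per length, up to 4 largest called changes per comparison and direction without overlap of libraries, stalk proteins, Rpsa, Rps27a, paralogs with their counterparts, genes not kept, extremes of spread, and up to 6 called genes per list. Members and lists were chosen with earlier results of these data known. The lists were other TOP mRNAs, TOP translation control, chaperones and late maturation, mitochondrial ribosomal proteins, pseudogenes, and markers of Paneth, goblet, tuft, enteroendocrine, enterocyte, stem, mitotic, epithelial, lymphocyte, stroma and vessel, and red blood cells.

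Alternatives were DESeq2 1.42.0, no TMM factors, mitochondrial or ribosomal RNA genes kept, no low-count filter, pseudogene counts added to parents, a replicate block, only the libraries compared, an adjusted p under 0.05 and each library left out in turn. Leaving out both P3 libraries, or the 50 most abundant genes, was chosen after seeing the data. Where a left-out library leaves a population with 1 library, that library is assumed to vary like the others.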

Additional observations from a re-analysis of the deposited data

Results flagged for a closer look

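Under the labels as given, the EF1a comparison of ribosomal protein genes differed between the OSCAR gates, on calls that changed with single libraries. For the difference of the P3 to P1 contrast from the P5 to P4 contrast, 19 of the 77 genes were called by edgeR's test of that difference, all of them higher, with a median of 1.77 on the log2 scale against 0.09 over all genes. It involved both libraries labelled P3, in which mitochondrial genes took 59.2% and 36.1% of counts. The count was 6 without P2 replicate 1, 0 without each of the other 9 libraries in turn, and 3 with mitochondrial genes kept, while DESeq2 called 45. Over all genes the calls were 124, 0, 112 and 2045 in the same order, against 375 with every library, and the family median was 1.63 to 1.94 with a library left out and 1.65 with mitochondrial genes kept. If the labels P2 and P3 stood for each other's gates, its P3 to P1 part would compare OSCAR gates at low EF1a.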

How the results depend on the processing

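With each library left out in turn, the count of called genes ran from 0 to 5 in P2 against P1, 1 to 34 in P2 against P4, 0 to 58 in P1 against P4, 4 to 45 in P3 against P1, 0 to 6 for the difference between OSCAR gates, and 0 to 0 in P3 against P5 and P5 against P4. Calls over all genes ran from 1693 to 5057, 338 to 2783, 0 to 4535, 153 to 2098 and 0 to 124 in the first 5 of these. The family medians ran from 0.13 to 0.71, -1.45 to -0.82, -1.77 to -1.42, 1.40 to 1.70, 1.63 to 1.94, 0.09 to 0.28 and -0.21 to -0.16 in the same order, so each kept its sign there. Without TMM factors the median of P2 against P1 turned to -0.16, and counts were 58 in P2 against P4 and 43 between OSCAR gates. At an adjusted p under 0.05 counts were 15 in P2 against P1, 48 in P2 against P4 and 49 between OSCAR gates. Without the low-count filter they were 6 in P2 against P1 and 46 between gates, and with DESeq2 5 and 45. Without both P3 libraries, P2 against P1 gave 5. With only the libraries compared, P3 against P1 gave 0 and the difference between gates 6. There the calls of Rpl12 and Rpl9 in P2 against P1, Rpl31 in P1 against P4, and Rpl12, Rpl31, Rpl35 and Rps19 in P3 against P1 were lost, at adjusted p of 0.0111 to 0.0889. That of Rpl35 was also lost with mitochondrial genes kept (0.0112), without the low-count filter (0.0105), with a replicate block (0.0117) and without the 50 most abundant genes (0.0116). That difference also gave 3 with mitochondrial genes kept, 29 with a replicate block and 12 without the 50 most abundant genes. The cause of these moves was not tested. Replicates of the same number in different populations had differences correlated by -0.06 to 0.55 over 10 pairs of populations, with a median of 0.25. The main tests hold no term for a source that such replicates may share. With a replicate block, calls over all genes were 2435 in P2 against P4 and 808 between OSCAR gates, against 1986 and 375 without it. Genes such as Rps6, Rps13, Rps23 and Rpl17 had counts near the floor in P1, which limits their tests, and the reason for these low counts was not tested.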

Other observations

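Of the 77 ribosomal protein genes 3 were higher in replicate 1 of all 5 populations and 1 was higher in replicate 2 of all 5. In a model with a term for the replicate number edgeR called 0 of the 77 and 46 of all 13887 genes, with 2 of the 77 at an unadjusted p under 0.05 and adjusted p of 0.0191 for Rpl29 and 0.0611 for Rpl30. Rpl29 was higher in replicate 1 of all 5 populations, at 22.7 and 14.4 TMM CPM for P1, 35.0 and 14.4 for P2, 93.8 and 26.4 for P3, 71.2 and 33.6 for P4, and 61.5 and 29.9 for P5. Rpl30 was higher in replicate 2 of all 5, at 31.9 and 47.8 for P1, 45.9 and 63.1 for P2, 57.5 and 156 for P3, 76.4 and 138 for P4, and 74.4 and 120 for P5. The pseudogene Rps13-ps1 had 46, 33, 55, 198 and 188 counts in replicate 1 of P1 to P5 and 0, 0, 2, 0 and 0 in replicate 2, and it was the called gene among 34 such pseudogenes (adjusted p = 0.000478). These genes were picked out after their values were seen.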
